A study of Sus scrofa with 48 samples.

Results

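The miRNAs of the imprinted DLK1-DIO3 locus were examined in RNA of seminal plasma extracellular vesicles (SPEVs) of boars. The rule that chose them uses names and no measured value: it takes the rows of the deposited miRNA table whose number belongs to a list of 41 miRNA numbers known from this locus in mammals, with any letter or arm ending. The rule found 7 of the 345 miRNAs in the table (2.03%), namely ssc-miR-127, ssc-miR-323, ssc-miR-370, ssc-miR-376a-3p, ssc-miR-381-3p, ssc-miR-382 and ssc-miR-432-5p. For the other 34 numbers of the list the table holds no row.

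SPEVs came from 12 Yorkshire boars whose sperm motility was high (H group) and from 12 whose sperm motility was low (L group), and each boar gave 1 small RNA library. All were sexually mature males between 14 and 36 months old. SPEVs are a mixed product of several glands and ducts of the male tract, so fewer vesicles of a source and less of a miRNA in each vesicle cannot be told apart. H libraries held 4189358 to 9148136 miRNA reads and L libraries 4650378 to 9842872, and levels below are CPM, the reads of a miRNA per 1000000 miRNA reads of its library.

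The DLK1-DIO3 locus is an imprinted domain, in which the copy of a gene that is active depends on the parent it came from. DLK1, RTL1 and DIO3 are protein-coding genes read from the paternal copy, whereas MEG3 and the miRNAs, which lie in long noncoding transcripts of the same strand, are read from the maternal copy. In mammals the miRNAs form a group lying antisense to RTL1, to which miR-127, miR-136 and miR-432 belong, and a larger group further downstream, to which miR-323, miR-376a, miR-381 and miR-382 belong, with miR-370 lying between them. They are known for their expression in placenta, embryo, brain and muscle.

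The pig annotation of RefSeq on Sscrofa11.1 shows the locus in 2 pieces. DLK1 (chr7:121565844-121577493), MEG3 (chr7:121656253-121660495) and RTL1 (chr7:121706955-121720472) lie in the last 278 kb of chromosome 7, whereas DIO3 lies at 504081 to 506187 of an unplaced scaffold that is 3843259 bases long. On these pieces the annotation places 7 hairpins and 10 mature arms under the numbers of the rule, and all 7 hairpins lie inside the interval from DLK1 to the chromosome end or from the scaffold start to DIO3. Only 3 of the 10 arms have a row of the same name in the table, namely ssc-miR-127, ssc-miR-432-5p and ssc-miR-376a-3p. The MIR127 hairpin (chr7:121709636-121709715, plus strand) lay within an exon of RTL1 on the opposite strand. The MIR432 hairpin (chr7:121711137-121711216, plus strand) began 1421 bases after it, also opposite an RTL1 exon, and on the same strand as the long noncoding RNA LOC106504559. The MIR376A hairpin was at 46331 to 46410 of the scaffold, on its plus strand, and overlapped no other annotated gene. For ssc-miR-323, ssc-miR-370, ssc-miR-381-3p and ssc-miR-382 no arm of the same name was matched, so that they belong to the locus by name only.

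The mature sequences of the 3 matched members are shown 5′ to 3′ as the genome encodes them, with the seed, bases 2 to 8, in capitals. The annotated arm of MIR381 is shown beside them because it lies on the 5′ side of its hairpin (50024 to 50105 of the scaffold), and is therefore not the arm that the ssc-miR-381-3p row counts. The sequences are from RefSeq, Sscrofa11.1.
ssc-miR-127: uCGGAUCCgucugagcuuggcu
ssc-miR-432-5p: uCUUGGAGuaggucauugggu
ssc-miR-376a-3p: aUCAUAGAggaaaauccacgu
ssc-miR-381 (5′ side): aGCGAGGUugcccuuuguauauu
The 10 annotated arms had 10 distinct seeds, so no pair of them shared one. The arms without a row were those of MIR493, MIR136 and MIR376C, together with ssc-miR-432-3p, ssc-miR-376a-5p and ssc-miR-381.

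The 7 cluster miRNAs with a row were close to the lower end of what the libraries measured. Whether the other numbers of the rule lacked a pig reference or lacked reads is not known here. The levels therefore cover these 7 only and not the whole locus. Together the 7 held 478 of 154602386 miRNA reads, or 3.09 CPM, 236 of them in H and 242 in L libraries. By comparison, ssc-let-7c alone took 29.1% of all reads. A miRNA of the table had a median of 2733 reads over all libraries, and a cluster miRNA a median of 20. All 7 had 223 reads or fewer, and 87 of the 345 rows had as few. The highest, ssc-miR-381-3p, ranked 259 and ssc-miR-382 ranked 275.

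**Figure D1:**
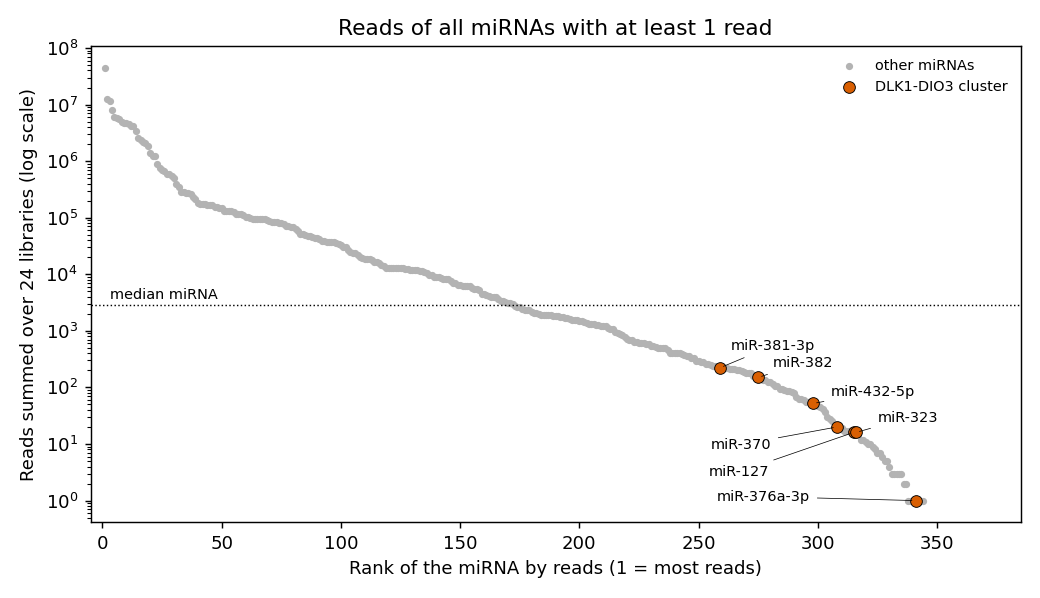
Reads of each miRNA summed over the 24 libraries (vertical axis, log scale) against its rank (horizontal axis), with each point 1 miRNA that had at least 1 read and the dotted line their median. The 7 cluster miRNAs (orange) run from miR-381-3p, at rank 259 with 223 reads, down to miR-376a-3p with 1 read, and all lie below the median.

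Reads of the cluster were also scattered between boars. Of the 168 values of a cluster miRNA in a library, 108 were 0 (64.3%), against 16.6% of the values of the other miRNAs, and 223 of the 345 miRNAs of the table had reads in every library. Most of those were far more abundant. The 42 other miRNAs with 100 to 400 reads in all had reads in a median of 19 libraries (5 to 24), beside 17 for ssc-miR-381-3p and 20 for ssc-miR-382, and 11 and 25 of the 42 were in fewer libraries than these. Among the 60 values above 0 the median was 6 reads, 11 values were a single read and 11 were 10 reads or more. A library of the H group held reads of 0 to 4 cluster miRNAs (median 2.5), and a library of the L group 0 to 5 (median 3). In boars H9 and L12 no read of any of them was found. A count of 0 allows up to 3 reads, which correspond to 0.305 to 0.716 CPM in a library. This covers counting error only, as the reads may include PCR copies, which are not independent molecules.

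**Figure D2:**
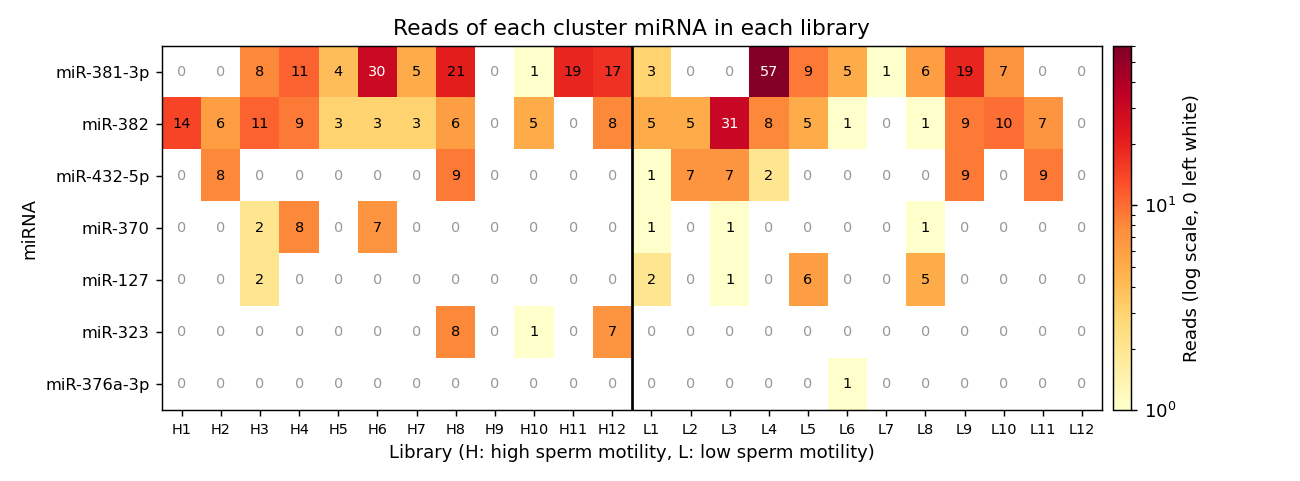
Reads of each cluster miRNA (rows) in each of the 24 libraries (columns, H group left and L group right of the line), with the number printed and the colour on a log scale. Most fields are 0; miR-381-3p reached 57 reads in L4 and miR-382 31 reads in L3, and miR-323 had reads in 3 H libraries and in no L library.

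Before the groups were compared, the libraries were checked for those that stand apart. The summed level of leucocyte miRNAs (miR-223, miR-142, miR-146a, miR-155 and miR-150, 7 rows) was 5310 CPM in L8 and 7151 CPM in L12, and 50.3 to 170 CPM in the other 22 libraries. For the members with more than 1 read in the L group, values without these 2 libraries are therefore also given. L8 had 13 cluster reads and L12 had 0. The leucocyte list was led by ssc-miR-146a-5p, with a mean of 35.8 CPM in the H group and 824 CPM in the L group. The L means of ssc-miR-223, ssc-miR-155-5p, ssc-miR-142-3p and ssc-miR-142-5p were also higher, whereas those of ssc-miR-150 were nearly level (6.43 CPM in H and 7.64 CPM in L). No pair of the 24 libraries had identical counts. Epithelial miRNAs (the miR-200 family, miR-141, miR-429 and miR-205) were the most abundant marker list, with a mean of 75562 CPM, whereas the erythroid, striated muscle, and smooth muscle and stroma lists had means of 3.24, 3.60 and 3.67 CPM, near the 3.32 CPM of the cluster. Rows with identical counts, such as ssc-miR-199a-3p and ssc-miR-199b-3p, were counted once. The mean of miR-34c was 84.5 CPM and that of the liver miRNA miR-122 84.9 CPM.

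The summed level of the 7 miRNAs lay within the range of the L group in all 12 H libraries, and only L4 lay above the range of the H group. It ranged from 0 to 8.69 CPM in the H group, with a median of 2.58, and from 0 to 13.8 CPM in the L group, with a median of 2.22. The H mean was 3.27 ± 2.48 CPM (SD, n = 12) and the L mean 3.37 ± 3.85 CPM (SD, n = 12), so the difference of 0.0999 CPM was much smaller than the spread between boars. Leaving out L8 and L12, the L group had a median of 2.55 CPM and a mean of 3.89 ± 4.03 CPM (SD, n = 10). No test was made of this sum, as its members were chosen as a list.

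The level varied widely between boars of the same group. In L4 the cluster reached 13.8 CPM, with an exact 95% binomial interval of 10.7 to 17.5 CPM, and in L7 it was 0.215 CPM (0.00544 to 1.20 CPM). The highest library of the H group, H6, had 8.69 CPM (6.21 to 11.8 CPM). In H9, with 0 reads, the upper end of the same interval was 0.453 CPM, a wider bound than its floor of 3 reads (0.368 CPM). In all, 6 libraries were at 5 CPM or more, namely H4, H6, H8, L3, L4 and L9. Without L4, the mean of the L group was 2.43 ± 2.13 CPM (SD, n = 11). L4 was also the highest of the 24 libraries for the smooth muscle and stroma list, at 9.45 CPM, and for miR-34c, a miRNA of germ cells and multiciliated cells, at 221 CPM. It was the 4th highest for the erythroid, leucocyte, epithelial and liver lists and the 13th for the striated muscle list. Their part in the level of L4 was not tested.

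**Figure D3:**
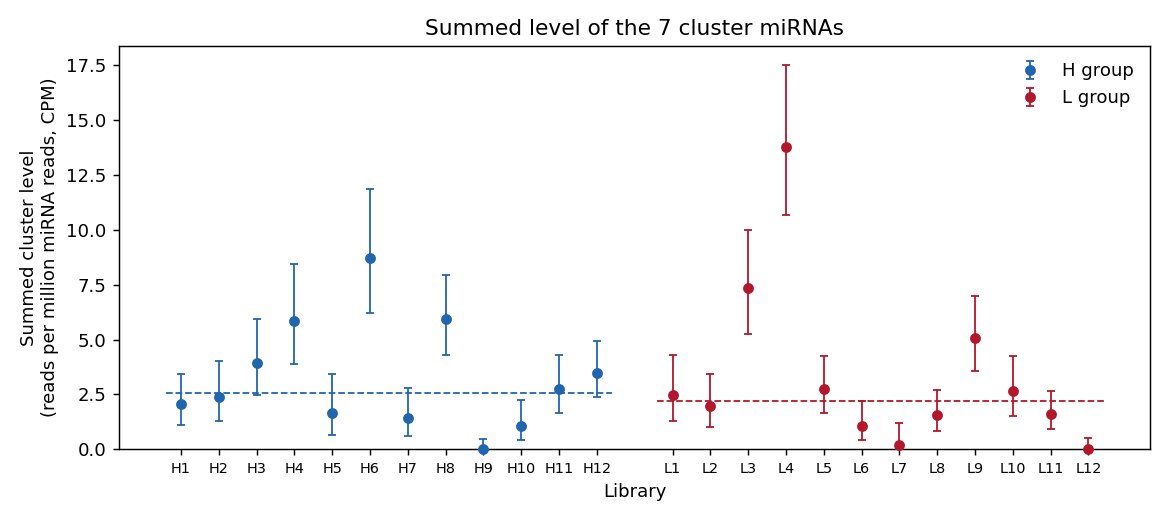
Summed level of the 7 cluster miRNAs in each library, in CPM, with bars for the exact 95% binomial interval (counting error only) and a dashed line for the median of each group. The H group (blue) runs from 0 to 8.69 and the L group (red) from 0 to 13.8, and the medians of 2.58 and 2.22 lie close together beside the spread of the boars.

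A test of single miRNAs was limited by these low counts. The quasi-likelihood test of edgeR was run on the 245 miRNAs that pass its filter on low counts (filterByExpr), and 0 of the 7 cluster miRNAs passed. That test therefore says nothing about them. Of the 245 miRNAs, 1 had an adjusted p under 0.05 (0.408%), and 17 (6.94%) met the limits used in the study, an unadjusted p under 0.05 with a fold change of 1.5 or more, or of 0.67 or less. To include the cluster, the mean CPM of each of the 344 miRNAs with reads was compared between the groups by a two-sided permutation test with 100000 resamples, and the number of libraries with a read by Fisher's exact test, both adjusted over all 344. In the permutation test 1 of the 344 was called (0.291%), and in Fisher's test none (0.0%). None of the 7 cluster miRNAs was called by either test, and none had an unadjusted p under 0.05, against 4.07% of all miRNAs in the permutation test and 0.291% in Fisher's test. This outcome was largely set by the number of libraries with reads. In Fisher's test ssc-miR-323, ssc-miR-376a-3p and ssc-miR-382 could not reach 0.05 even unadjusted, and the smallest p that any member could reach, 0.00135 for ssc-miR-432-5p, would give an adjusted p of 0.463 as the smallest of the 344. For the 5 members with reads in 12 libraries or fewer the permutation test has the same smallest p, so that it could call none of them after adjustment, whatever their reads, and could not bring ssc-miR-323 or ssc-miR-376a-3p under 0.05. Without a filter, edgeR also called no cluster miRNA after adjustment (0.29% of 345 called), and neither did DESeq2 (0.581% of 344 called). An unadjusted p under 0.05 was given to 3 of the 7 by edgeR, against 13.3% of all 345, and to 0 of the 7 by DESeq2, against 7.56% of 344. By the limits of the study, the unfiltered edgeR test took 3 of the 7, namely ssc-miR-127, ssc-miR-323 and ssc-miR-370, against 10.4% of all 345, whereas DESeq2 took 0 of the 7, against 4.65% of 344. The filter was used because an earlier run on simulated counts gave false calls for low rows without it. All 7 members are rows that the filter removes, whereas the 10.4% covers rows of every level, so the 2 shares are not alike. With the replicate number as a block, the unfiltered edgeR test took 0 of the 7 (2.61% of 345), and without L8 and L12 it took 2, ssc-miR-323 and ssc-miR-370 (6.38% of 345).

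Of the members that belong by name to the downstream group, ssc-miR-381-3p and ssc-miR-382 carried 373 of the 478 reads (78.0%). They are the members through which most of the cluster was seen, and 22 of 24 libraries had reads of at least 1 of them.

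ssc-miR-381-3p had 223 reads in 17 libraries, with reads in 9 H libraries and 8 L libraries. Its level was 0 to 6.52 CPM (median 1.16) in H libraries and 0 to 11.7 CPM (median 0.671) in L libraries. The groups overlapped over the whole range of the H group. The means were 1.63 ± 1.87 CPM and 1.58 ± 3.28 CPM (SD, n = 12 each; permutation test, p = 0.968, adjusted p = 1). A single library, L4, held 57 of the 223 reads (25.6%). Without it the mean of the L group was 0.658 ± 0.789 CPM (SD, n = 11), and without L8 and L12 it was 1.82 ± 3.57 CPM (SD, n = 10; permutation test, p = 0.899).

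ssc-miR-382 was the most widely found member, with 150 reads in 20 libraries, 10 of each group. H libraries had 0 to 2.05 CPM (median 0.791) and L libraries 0 to 5.68 CPM (median 0.765). The medians of the groups were nearly equal, and the higher maximum of the L group came from L3 with 31 reads. The means were 0.933 ± 0.682 CPM and 1.14 ± 1.54 CPM (SD, n = 12 each; permutation test, p = 0.786, adjusted p = 1). Without L3 the mean of the L group was 0.722 ± 0.603 CPM (SD, n = 11), and without L8 and L12 it was 1.35 ± 1.61 CPM (SD, n = 10; permutation test, p = 0.522).

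Although both belong by name to the same group of the locus, ssc-miR-381-3p and ssc-miR-382 did not lead in the same libraries. Both had reads in 15 libraries, ssc-miR-381-3p had more reads than ssc-miR-382 in 13 libraries, and ssc-miR-382 had more in 9. In H11 there were 19 reads of ssc-miR-381-3p and 0 of ssc-miR-382, whereas in H1 there were 0 and 14, and in L3 0 and 31. The variance of the reads over the 24 libraries was 18.5 times their mean for ssc-miR-381-3p and 6.82 times for ssc-miR-382. Among the 42 other miRNAs with 100 to 400 reads in all, this ratio had a median of 9.97 and ran from 3.18 to 99.1, and 7 of them exceeded ssc-miR-381-3p while 35 exceeded ssc-miR-382. The uneven reads of these members were thus within the range of other miRNAs as rare as they are.

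ssc-miR-323, also of the downstream group by name, had 16 reads, and all of them came from the H group. H8 had 8 reads, H12 had 7 and H10 had 1, and the other 9 H libraries and the 12 L libraries had 0. The largest level was 1.08 CPM. Against a floor of 3 reads over the whole L group, the pooled level of the H group was 5.54-fold higher. This ratio allows for counting error in the L group only. It does not cover the counting error of the 16 H reads or the spread between boars. The ratio was 3.07-fold without H8, 3.54-fold without H12 and 4.46-fold without L8 and L12. The difference rests on 3 boars, and Fisher's exact test on 3 against 0 libraries gave p = 0.217, which is the smallest value that detection in 3 libraries allows. In the permutation test, p was 0.217 and adjusted p 0.881.

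ssc-miR-376a-3p, of a family known for editing of adenosines in its precursors, had a single read, in L6. In the other 23 libraries it was not detected at this depth. Reads were mapped with no mismatch to the genome, so copies with an edited base may be missing from this count.

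ssc-miR-370, whose gene lies between the 2 groups in other mammals, had 20 reads in 6 libraries. H4 had 8 reads, H6 had 7 and H3 had 2, and L1, L3 and L8 had 1 read each. The number of libraries was the same in both groups, but the reads were not. The pooled level was 5.89 times as high in the H group as in the L group, with an interval from counting error alone of 1.70 to 31.4. The ratio was 3.33 (0.831 to 19.1) without H4, 3.69 (0.949 to 20.8) without H6, both with intervals that include 1, and 7.10 (1.69 to 63.4) without L8 and L12. Between boars, the means of 0.294 ± 0.615 CPM and 0.0425 ± 0.0791 CPM (SD, n = 12 each) differed by less than the spread of the H group (permutation test, p = 0.272, adjusted p = 0.881), and without L8 and L12 p was 0.376.

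ssc-miR-432-5p had the most reads of the group antisense to RTL1, 52 in 8 libraries. In the H group, H2 had 8 reads and H8 had 9. In the L group, L9 and L11 had 9 reads each, L2 and L3 had 7 each, L4 had 2 and L1 had 1. It was thus found in 2 H libraries and 6 L libraries (Fisher's exact test, p = 0.193, adjusted p = 1). The highest levels of the groups were alike, 1.37 CPM for H and 1.28 CPM for L. The means were 0.215 ± 0.504 CPM and 0.432 ± 0.546 CPM (SD, n = 12 each; permutation test, p = 0.314, adjusted p = 0.926). Without L8 and L12, neither of which had a read of it, the L mean was 0.519 ± 0.560 CPM (SD, n = 10; permutation test, p = 0.203), and Fisher's exact test gave p = 0.0743. The H mean was 0.110 ± 0.365 CPM without H2 (permutation test, p = 0.116) and 0.125 ± 0.414 CPM without H8 (p = 0.165 in the same permutation test; SD, n = 11 each).

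ssc-miR-127, a miRNA known to act on the RTL1 transcript to which it is antisense, had 16 reads in 5 libraries. H3 was the only H library, with 2 reads, whereas L5 had 6 reads, L8 had 5, L1 had 2 and L3 had 1. The pooled level of the L group was 6.74 times that of the H group, with an interval from counting error of 1.55 to 61.1. It was 4.24 without L5, with an interval of 0.847 to 41.0 that includes 1, and 5.38 (1.11 to 51.2) without L8 and L12, and without H3 the H group had no read. Detection in 1 against 4 libraries gave p = 0.317 in Fisher's exact test (adjusted p = 1), and the difference in mean CPM gave p = 0.151 in the permutation test (adjusted p = 0.881). One of the libraries with reads, L8, was among those rich in leucocyte miRNAs, and without L8 and L12 the permutation test gave p = 0.195.

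The hairpins of the 2 antisense members lie 1421 bases apart, and both members had reads in 2 libraries, L1 and L3. ssc-miR-127 and ssc-miR-370 were found together in 4 libraries, H3, L1, L3 and L8, and all 5 libraries with ssc-miR-127 had reads of ssc-miR-382. ssc-miR-323 shared no library with ssc-miR-127 or ssc-miR-370. As ssc-miR-382 had reads in 20 of the 24 libraries and the other 4 of these members in 3 to 8, the overlaps are given as a description only.

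The unfiltered fits differed on the 3 members with the fewest libraries above 1. For ssc-miR-127 edgeR gave a log2 fold change, L group minus H group, of 1.89 (p = 0.0372, adjusted p = 0.313). A standard error of 0.86 was worked back from this fold change and its test statistic, as edgeR gives none. DESeq2 gave 1.69 with its own standard error of 2.46 (p = 0.492), so the standard errors are not like measures. For ssc-miR-323 edgeR gave -3.56 (p = 0.0066, adjusted p = 0.251) and DESeq2 -2.90 (p = 0.326). As the L group had no reads of it, the reads set no limit on how large either fold change could be. For ssc-miR-370 edgeR gave -2.29 (p = 0.027, adjusted p = 0.301) and DESeq2 -2.52 (p = 0.213). The directions were those of the reads above, and only the unfiltered edgeR test put them under 0.05.

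The low level was compared with that of other miRNA genes on the same chromosome. Upstream of DLK1, and outside the imprinted interval, lie MIR342 (chr7:121021761-121021840), MIR345-1 (chr7:121193720-121193799) and, nearest to DLK1, MIR9830 (chr7:121269716-121269787, minus strand), whose arm ssc-miR-9830-5p has no row in the table. ssc-miR-342 had a mean of 434 CPM, ssc-miR-345-3p 103 CPM and ssc-miR-345-5p 23.4 CPM, and each of these 3 arms had reads in all 24 libraries. The lowest library for any of the 3, at 5.04 CPM of ssc-miR-345-5p, was above the median of the whole cluster in both groups. Levels of different miRNAs in a small RNA library also depend on how well each is captured, so that these values are given side by side and were not tested.

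The annotation was also searched for clusters of at least 3 hairpins on a strand, each within 10000 bases of the next. Of the 12 found, 2 lie in the DLK1-DIO3 interval, and 9 of the other 10 had miRNAs in the table. These 9 had summed means from 39.6 CPM, for the miR-450 and miR-542 cluster of the X chromosome, to 82621 CPM for a let-7 cluster. The cluster of MIR127, MIR432 and MIR136 had a mean of 0.422 CPM and a highest library of 1.47 CPM, and that of MIR376C, MIR376A and MIR381 a mean of 0.00637 CPM, or 1.61 CPM when the ssc-miR-381-3p row is added to it by name. Both were below all 9 others, with or without that row. The 3 miRNAs whose arms are encoded in more than 1 of these clusters were counted in each.

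**Figure D4:**
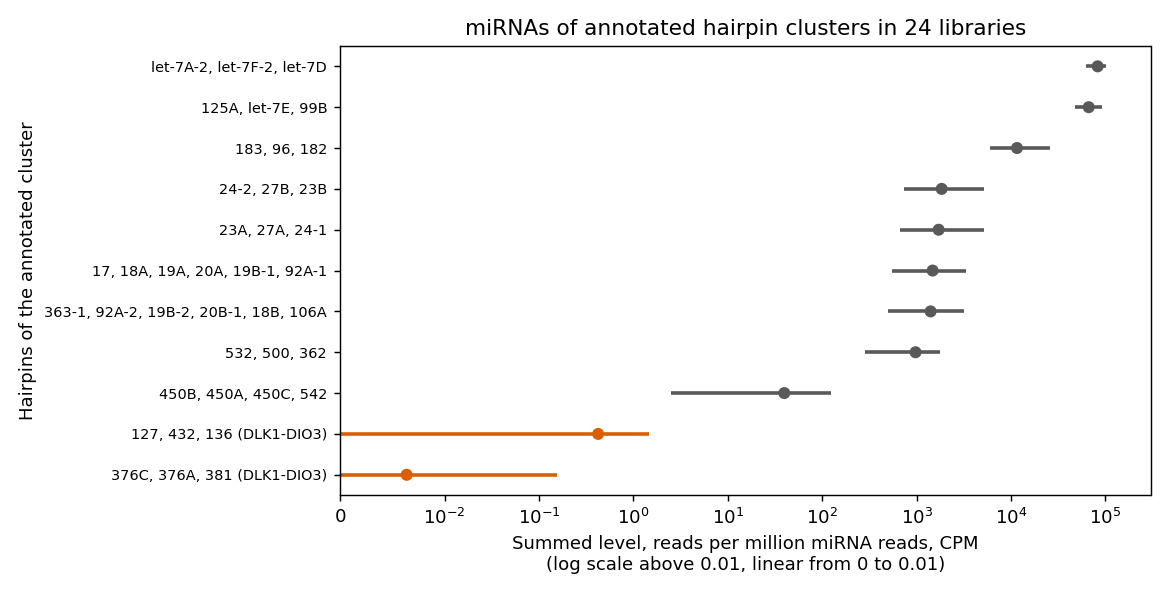
Summed level of the miRNAs of each annotated hairpin cluster, in CPM (log scale above 0.01), with the point at the mean of the 24 libraries and the line from the lowest to the highest library. The 2 clusters of the DLK1-DIO3 interval (orange, means of 0.422 and 0.00637) lie below the 9 others (grey, means of 39.6 to 82621), and the miR-381-3p row is not included.

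A second readout of the locus came from the circRNAs of the long RNA libraries, 12 of each group. The authors deposited reads of 17379 circRNAs on the same build, with 128644 to 610615 back-splice junction reads per library. Of the 60 circRNAs on the scaffold taken as that of DIO3, 55 had both ends on annotated exon edges of that scaffold, and no other scaffold had any. None of the 17379 circRNAs had an end in the interval, neither between the start of DLK1 and the end of chromosome 7 nor between the scaffold start and the end of DIO3. On the DLK1 side the nearest was chr7:121224913-121226354, within WARS, with 142 junction reads in 3 libraries. On the DIO3 side the nearest ran from 661811 to 680569 of the scaffold, within PPP2R5C, with 47 junction reads in 2 libraries. As the table lists only circRNAs that were found by both detection programs with at least 2 junction reads, rarer ones were not detectable, and linear MEG3, RTL1 and DLK1 transcripts were not analysed here.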

How the data were processed

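Small RNA libraries (QIAseq miRNA kit) and long RNA libraries (SMARTer Stranded kit) of SPEVs of 24 boars were used. Per the labels 60 mL of seminal plasma was taken, and the paper's methods give another volume. The authors deposited unnormalized counts per mature miRNA, made with cutadapt, removal of other small RNAs and repeats with Bowtie, and miRDeep2 with no mismatch to the pig genome (susScr11), and counts of junction reads of circRNAs found by both find_circ and CIRI2. Whether molecular identifiers were collapsed is not given in the sources used here. Columns without a library numbered 0.

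The members and lists were chosen with earlier results of these data known. Counts were fitted in R 4.3.3 with edgeR 4.0.16 (TMM, quasi-likelihood, filterByExpr, no covariate), with DESeq2 1.42.0 as an alternative, and p-values were adjusted by the Benjamini-Hochberg method over all miRNAs tested. As no member passed the filter, the permutation test of CPM and Fisher's exact test of detection were added after the counts were seen. The scripts were tested on simulated data. Sequences and positions were read from RefSeq, Sscrofa11.1, in Python 3.11.15 with pandas 2.3.3, NumPy 2.4.6 and SciPy 1.17.1. Members named are all 7, and other miRNAs are named from the marker lists, from likeness to the summed level and from their position. The replicates are separate boars, and depth and floors are given with the results. Alternatives were DESeq2, RLE, library totals, no filter, the replicate number as a block, leaving out each library, other denominators and, chosen after seeing the data, leaving out L8 and L12 or L4.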

Additional observations from a re-analysis of the deposited data

How the results depend on the processing

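Under DESeq2, RLE, library totals, no filter, the replicate block, each left-out library and without L8 and L12, 0 cluster miRNAs were called after adjustment, but members were tested only without the filter. By the limits of the study 0 members were counted with the filter and 3 without it. Without it, DESeq2 gave 0 members and 16 of all miRNAs, the replicate block 0 and 9, single left-out libraries 1 to 3 (1 without H6) and 26 to 42, and leaving out L8 and L12 2 and 22, against 3 and 36 in the unfiltered fit. ssc-miR-127 was past p = 0.05 in 10 of 24 fits with a library left out, ssc-miR-370 in 22 and ssc-miR-323 in 24. Over all miRNAs in the filtered fits, 1 was called after adjustment, 0 with the replicate block and 0 without L8 and L12, and 0 to 1 without a single library. In the unfiltered fits the highest count was 2, by DESeq2, without H10 and without L10. By the limits there were 17 with the filter, against 36 without it; in filtered fits there were 7 with the replicate block, 5 without L8 and L12, and 7 (without L12) to 21 without a single library.

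The replicate block rests on numbers that mark different boars: 5 of 12 pairs of same-numbered libraries correlated above 0.1 (range -0.36 to 0.52), and 0 H libraries correlated best with their own number. With it the unfiltered log2 fold change of ssc-miR-382 turned from 0.33 to -0.21, and those of the others went from 1.89 to 1.64 (ssc-miR-127), -3.56 to -2.73 (ssc-miR-323), -2.29 to -1.26 (ssc-miR-370), 0.70 to 0.50 (ssc-miR-376a-3p), -0.18 to -0.83 (ssc-miR-381-3p) and 0.83 to 1.88 (ssc-miR-432-5p). The difference in CPM of ssc-miR-381-3p turned to 0.189 without L8 and L12. Without single libraries it ran from -0.976 (without L4) to 0.389, and that of ssc-miR-382 from -0.210 (without L3) to 0.306. In the unfiltered fits these ran from -1.16 to 0.14 and from -0.32 to 0.50 on the log2 scale, that of ssc-miR-127 from 1.35 (without L5) to 3.16 (without H3), that of ssc-miR-370 from -2.63 to -1.44 (without H4) and that of ssc-miR-432-5p from 0.46 to 1.67 (without H8, and 1.58 without H2). With the 5 most abundant miRNAs left out of the denominator, the median summed level was 6.32 CPM in the H group and 4.46 CPM in the L group.

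The arm shares could not be computed because no hairpin of the cluster has both arms in the table, and the correlations among members were not computed because no member passed the filter. Depth limits every member here: 15 of the 60 values above 0 rest on fewer than 3 reads, with levels down to 0.121 CPM.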

Other observations

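Of the 245 miRNAs that passed the filter, those whose level ranked most like the summed level of the cluster over the 24 libraries were ssc-miR-7134-5p (Spearman's rho = 0.475, Pearson's r = 0.516), ssc-miR-190b (0.441 and 0.481), ssc-miR-542-5p (0.420 and 0.246) and ssc-miR-7134-3p (0.417 and 0.321). They are followed by ssc-miR-9, whose 3 rows held identical counts (0.372 and 0.332). These are the highest of 245 values from libraries that share depth and composition, and they are given as a description without a test.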
